A study of Mus musculus with 42 samples.

Results

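The 10 genes described here, Gal3st1, Ly6k, Tex101, Prss50, Trim52, Pkd2l1, Kcnj15, Pde4c, Syn2 and Wdfy4, were picked from the 27179 genes of a count table because their RNA was strongly lower in Chd8 mutant than in control spermatogonia, in Thy1+ cells, in c-Kit+ cells or in both. Because the genotype difference chose them, that difference is given below as a description without a test.

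RNA was sequenced from cells of C57BL/6J male mice at 10 days postpartum (dpp). Every animal carried Ddx4-Cre, a recombinase transgene active in germ cells, and at least 1 floxed Chd8 allele: controls were Chd8 +/F and mutants Chd8 F/-, so the controls lose 1 allele in their germ cells and the mutants also carry a null allele in all other cells. From dissociated testes, magnetic beads took out c-Kit+ cells first and then Thy1+ cells from the remainder, in 3 libraries for each of the 4 groups; the question was how loss of the chromatin remodeler CHD8 changes RNA levels in spermatogonia. The study's methods give 3 male pups as the source of the sorted cells in an experiment, and the labels do not tie a library to an animal, so p-values measure the spread between libraries.

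The 12 libraries held 32266861 to 45396233 counts. Chd8 itself ran from 257 to 285 CPM (reads scaled to a common library size) in control and 262 to 299.5 in mutant Thy1+ libraries, and from 266 to 308 in control and 289 to 310.2 CPM in mutant c-Kit+ libraries; the table sums all exons, so it does not show the deletion of the floxed ones. Thy1 RNA was 11.8 to 14.6 CPM in control Thy1+ and 0.440 to 0.944 CPM in control c-Kit+ libraries. Kit RNA was 176 to 395 CPM in control Thy1+ and 633 to 721 CPM in control c-Kit+ libraries. The Thy1+ libraries also held RNA of other testis cells, with a summed level of 6 stromal markers of 8343 to 10685 CPM in controls against 1384 to 1699 CPM in c-Kit+ controls. Replicate 1 of the Thy1+ cells stood apart in both genotypes, with 8 Sertoli cell markers summing to 666 CPM in the control (145 and 155 in the other two) and 866 CPM in the mutant (302 and 303).

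CHD8 is an ATP-dependent chromatin remodeler that binds near the starts of many genes. In the young testis, Thy1 is used to enrich undifferentiated spermatogonia, and c-Kit to enrich spermatogonia that have begun to differentiate and will enter meiosis. Several of the 10 genes encode products known from germ cells: a sulfotransferase for the main glycolipid of male germ cells, GPI-anchored surface proteins and a testis protease. Others are known mainly from other tissues, among them ion channels, a cyclic AMP phosphodiesterase, a synaptic vesicle protein and a protein of antigen-presenting cells.

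RefSeq promoters (GRCm38.p6, the mm10 assembly) were matched for 8 of the 10 genes. The 150 bases before the first listed transcript start are shown for 4 genes that were higher in c-Kit+ than in Thy1+ controls, so that the letters before their starts can be read beside their values. Capitals mark a match to any of 8 short motifs searched on both strands: the E-box CACGTG, the E2F motif TTCCCGC, the GC box GGGCGG, the CCAAT box, the TATA box TATAAA, the CRE core TGACGT, the ETS motif CCGGAAG and the NRF1 motif GCATGCG.
Gal3st1 (chr11:3983486-3983635, + strand): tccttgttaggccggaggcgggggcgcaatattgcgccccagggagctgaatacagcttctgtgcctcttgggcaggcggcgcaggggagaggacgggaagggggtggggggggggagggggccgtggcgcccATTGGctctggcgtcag
Prss50 (chr9:110857814-110857963, + strand): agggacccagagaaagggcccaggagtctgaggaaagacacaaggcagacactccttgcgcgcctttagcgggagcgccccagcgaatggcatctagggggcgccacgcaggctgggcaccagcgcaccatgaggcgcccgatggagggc
Tex101 (chr7:24672051-24672200, - strand): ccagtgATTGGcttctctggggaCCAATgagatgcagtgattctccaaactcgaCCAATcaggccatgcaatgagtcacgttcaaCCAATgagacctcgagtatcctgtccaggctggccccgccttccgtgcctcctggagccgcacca
Trim52 (chr14:106106048-106106197, + strand): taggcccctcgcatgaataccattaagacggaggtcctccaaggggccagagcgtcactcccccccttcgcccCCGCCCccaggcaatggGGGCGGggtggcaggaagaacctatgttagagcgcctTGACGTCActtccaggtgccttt
The Tex101 window held 4 CCAAT matches, a number reached in 0.237% of the 27018 windows of this length, and the Gal3st1 window held 1. At least 1 CCAAT match was present in 25.3% of all windows. The Trim52 window held 2 GC boxes (29% of all windows hold at least 1) and the CRE core TGACGT once on each strand, in overlapping letters (5.27% of all windows hold at least 1 match). The Prss50 window held none of the 8 motifs. The E-box, which 4.3% of all windows hold, was found in 0 of the 8 windows matched, and so were the E2F, TATA, ETS and NRF1 letters. GC content was 70% for Gal3st1, 66.7% for Prss50 and 67.3% for Syn2, against a median of 54% over all windows. It was 62.7% for Trim52 and 56.7% for Tex101, and Pde4c, Wdfy4 and Kcnj15 lay at 53.3% to 55.3%. The CpG content relative to that expected from C and G was 0.510 to 0.726 for Gal3st1, Prss50, Tex101, Syn2 and Trim52, and 0 to 0.188 for Pde4c, Kcnj15 and Wdfy4 (median of all windows 0.409). These letters describe the windows and show no binding.

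All values below are CPM after TMM scaling of the 12 libraries together, given in the order of replicates 1, 2 and 3, and SE is that of the edgeR fit. In Thy1+ cells, the mutant libraries lay below every control library for 10 of the 10 genes, an arrangement found for 11.1% of the 17416 genes tested. In c-Kit+ cells this held for 9 of the 10 genes, against 24.0% of the 17134 genes tested, and Kcnj15 was the exception. Both counts follow from how the genes were picked. In a bulk library, fewer cells of a type and less RNA per cell cannot be told apart.

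**Figure D1:**
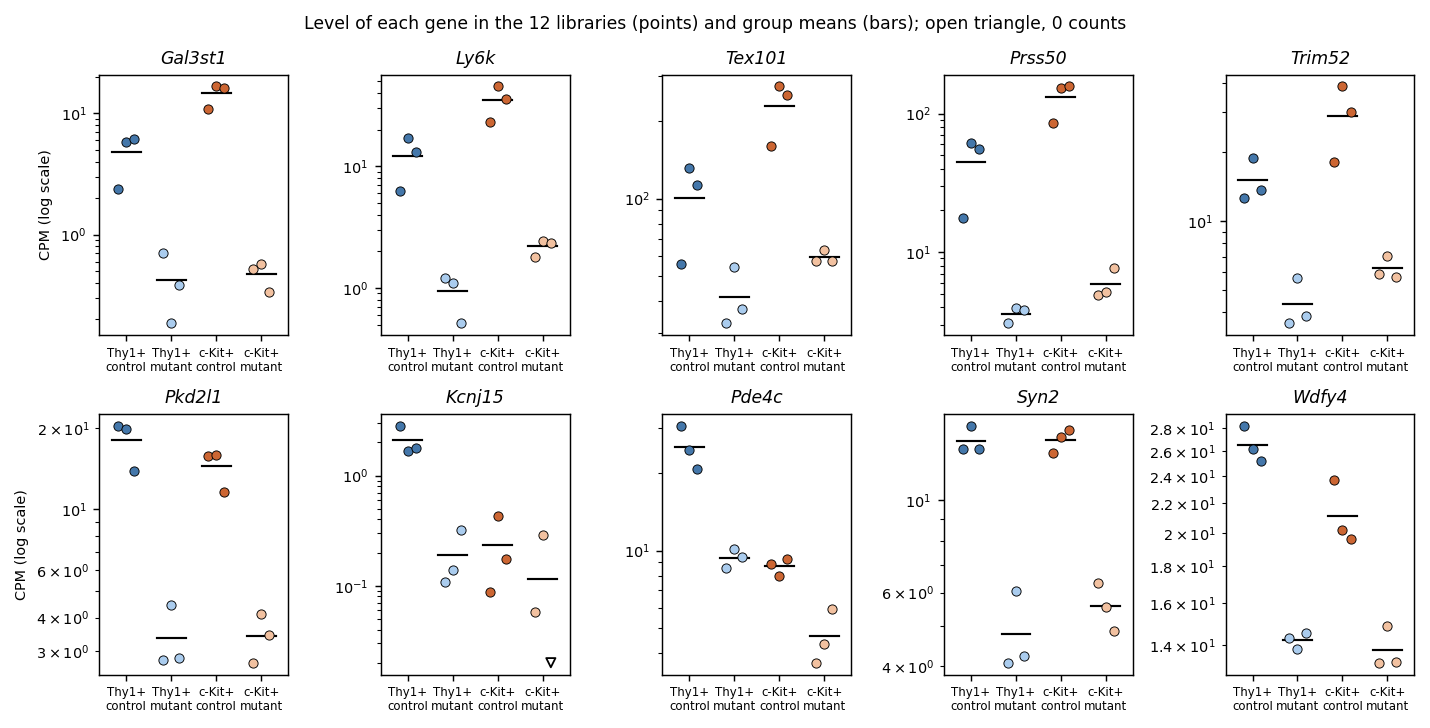
Level of each of the 10 genes in CPM (log axes, 1 panel a gene) in Thy1+ and c-Kit+ control and mutant libraries; points are libraries, bars are means of 3, and an open triangle marks a library with 0 counts. Gal3st1 in c-Kit+ cells ran from 10.8 to 16.7 CPM in controls and from 0.339 to 0.574 CPM in mutants.

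Gal3st1 (chr11:3983636-3999328, + strand, 5 exon blocks) encodes the sulfotransferase that makes seminolipid, the sulfated glycolipid of the germ cell membrane, which meiosis in the male needs. In c-Kit+ cells it was at 10.8, 16.7 and 16.3 CPM in controls and at 0.522, 0.574 and 0.339 CPM in mutants. In Thy1+ cells it was at 2.38, 5.80 and 6.19 CPM in controls and at 0.710, 0.186 and 0.383 CPM in mutants. The lowest c-Kit+ control was 18.9 times the highest c-Kit+ mutant, and 3.28% of the control mean was left (log2 fold change −4.93, SE 0.26), the second lowest value among the genes tested there. In Thy1+ cells 8.89% was left (−3.49, SE 0.56). The mutant values rest on 12 to 24 reads a library in c-Kit+ cells and on 8 to 26 in Thy1+ cells, so the level that remained is known only coarsely. Mates of a pair were counted as separate reads by the command in the header, and 65.6% to 69.6% of counts from 1 to 19 were even, so there are fewer independent fragments than reads.

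Ly6k and Tex101 encode GPI-anchored proteins of the Ly6/uPAR family, both known from the germ cell surface, where they are needed for sperm to pass into the oviduct. Ly6k (chr15:74796874-74799968, - strand, 4 exon blocks) was at 23.4, 45.5 and 36.0 CPM in c-Kit+ controls and at 1.80, 2.44 and 2.34 CPM in mutants. In Thy1+ cells it was at 6.21, 17.2 and 13.0 CPM in controls and at 1.2, 1.09 and 0.511 CPM in mutants. The share left was alike, 6.28% in c-Kit+ (log2 fold change −4.0, SE 0.25) and 7.70% in Thy1+ (−3.67, SE 0.46), and no mutant library came near a control. Tex101 (chr7:24668012-24672050, - strand, 6 exon blocks) was at 160.3, 272 and 252 CPM in c-Kit+ controls and at 57.0, 63.2 and 57.4 CPM in mutants. In Thy1+ cells it was at 55.9, 132 and 113 CPM in controls and at 32.8, 54.3 and 37.4 CPM in mutants. Tex101 thus kept more of its RNA than its relative: 25.9% in c-Kit+ (−1.96, SE 0.17) and 41.4% in Thy1+ (−1.27, SE 0.33). Its lowest Thy1+ control, the library rich in Sertoli markers, was only 1.03 times its highest Thy1+ mutant. Per kilobase of exon, Tex101 was the most abundant of the 10 genes, at 217 CPM per kb in c-Kit+ controls and 56.2 in c-Kit+ mutants, and Ly6k was at 45.2 and 2.84.

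Prss50 (chr9:110857967-110864628, + strand, 5 exon blocks), also known as testis-specific protease-like protein 50, was at 85.7, 153 and 157 CPM in c-Kit+ controls and at 4.93, 5.14 and 7.65 CPM in mutants. In Thy1+ cells it was at 17.7, 61.5 and 55.7 CPM in controls and at 3.06, 3.95 and 3.8 CPM in mutants. The share left was 4.48% in c-Kit+ (log2 fold change −4.50, SE 0.26) and 8.01% in Thy1+ (−3.64, SE 0.46). Per kilobase it was second to Tex101, at 90.8 CPM per kb in c-Kit+ controls and 4.06 in mutants. Trim52 (chr14:106106198-106109280, + strand, 1 exon block), a RING finger protein of the TRIM family of ubiquitin ligases, was at 18.1, 38.6 and 29.7 CPM in c-Kit+ controls and at 5.89, 7.06 and 5.68 CPM in mutants. In Thy1+ cells it was at 12.7, 18.8 and 13.7 CPM in controls and at 3.58, 5.66 and 3.86 CPM in mutants. It kept 21.5% in c-Kit+ (−2.23, SE 0.24) and 29.1% in Thy1+ cells (−1.77, SE 0.25), with the groups well apart in both.

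The ion channel genes differed in where they were expressed. Pkd2l1 (chr19:44147637-44192442, - strand, 15 exon blocks), a polycystin cation channel, was at 20.4, 19.8 and 13.8 CPM in Thy1+ controls and at 2.79, 4.46 and 2.84 CPM in mutants. In c-Kit+ cells it was at 15.7, 15.9 and 11.6 CPM in controls and at 2.73, 4.12 and 3.44 CPM in mutants. Its loss was about the same size in both populations, with 18.7% left in Thy1+ (log2 fold change −2.40, SE 0.25) and 23.8% in c-Kit+ (−2.08, SE 0.19). Kcnj15 (chr16:95257651-95300260, + strand, 5 exon blocks), the inward rectifier potassium channel Kir4.2, was at 2.84, 1.69 and 1.79 CPM in Thy1+ controls and at 0.109, 0.139 and 0.319 CPM in mutants, which kept 8.98% (−3.48, SE 0.48). In c-Kit+ libraries Kcnj15 had 3, 15 and 6 reads in controls and 2, 12 and 0 reads in mutants. It did not pass the filter on low counts there, its groups overlapped, and no difference was detectable at this depth.

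Pde4c (chr8:70724064-70751186, + strand, 17 exon blocks), a phosphodiesterase that degrades cyclic AMP, was at 30.7, 24.7 and 20.9 CPM in Thy1+ controls and at 8.52, 10.2 and 9.45 CPM in mutants. In c-Kit+ cells it was at 8.85, 7.96 and 9.30 CPM in controls and at 3.66, 4.31 and 5.93 CPM in mutants. It kept 36.9% in Thy1+ (log2 fold change −1.42, SE 0.17) and 53.2% in c-Kit+ (−0.92, SE 0.19), and when libraries were scaled by 8 germ cell markers its c-Kit+ groups overlapped (65.2% left). Syn2 (chr6:115134902-115282626, + strand, 13 exon blocks), a synapsin that coats synaptic vesicles in neurons, was at 13.3, 15.1 and 13.3 CPM in Thy1+ controls and at 4.07, 6.06 and 4.21 CPM in mutants. In c-Kit+ cells it was at 13.0, 14.2 and 14.8 CPM in controls and at 6.33, 5.53 and 4.86 CPM in mutants. The shares left, 34.4% (−1.52, SE 0.20) and 39.8% (−1.35, SE 0.14), were close.

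Wdfy4 (chr14:32959547-33185066, - strand, 59 exon blocks), a BEACH domain protein that dendritic cells need to present antigens taken up from other cells, was at 28.2, 26.1 and 25.2 CPM in Thy1+ controls and at 14.3, 13.8 and 14.5 CPM in mutants. In c-Kit+ cells it was at 23.7, 20.2 and 19.6 CPM in controls and at 13.2, 14.9 and 13.3 CPM in mutants. Its decrease was the smallest of the 10 in Thy1+ and, among the 9 genes fitted, in c-Kit+ cells, with 53.7% left in Thy1+ (log2 fold change −0.88, SE 0.12) and 65.2% in c-Kit+ (−0.63, SE 0.11). Scaled by germ cell markers, its Thy1+ groups overlapped, with 68.1% left. Its rank among all genes, 628th from the lowest in Thy1+ and 1319th in c-Kit+, shows that the 10 genes are not simply the 10 with the lowest fold changes.

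**Figure D2:**
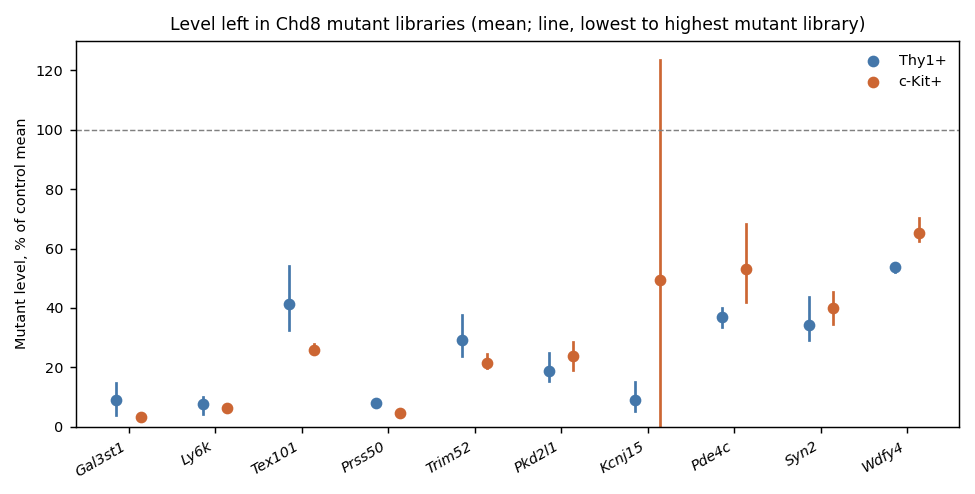
Mutant level as a percentage of the control mean in Thy1+ and c-Kit+ cells; points are mean ratios and lines run from the lowest to the highest of 3 mutant libraries. Gal3st1, Ly6k and Prss50 kept under 9% in both populations, Wdfy4 kept 53.7% and 65.2%, and the c-Kit+ line of Kcnj15, on 0 to 12 reads, runs from 0 to 124%.

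Of the genes tested in c-Kit+ cells, 24 had a log2 fold change below −3, of which 3 are among the 10, and 563 lay below −1, of which 7 are. In Thy1+ cells the corresponding counts were 15 genes with 4 of the 10, and 474 genes with 9 of the 10. The genes outside the 10 with the lowest values in c-Kit+ cells, at a mean log2 CPM of at least 0, were Magea4 (log2 fold change −3.79), BC051142 (−3.75), a gene without a symbol (−3.70), Meiob (−3.69), Prss41 (−3.69), Cd3e (−3.66), Magea3 (−3.24) and Stxbp5l (−3.24). Meiob acts in meiotic recombination, and the Magea genes are a family of near-identical X-linked copies whose reads may be divided uncertainly. In Thy1+ cells the lowest were Gm21708 (−3.69, with overlapping groups), Magea3 (−3.56), Magea4 (−3.08), Prss41 (−2.93), the same gene without a symbol (−2.85), Slc7a14 (−2.72), Dnah5 (−2.69) and Otud6a (−2.69, with overlapping groups).

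The contrast between the populations was not itself used to pick the genes. Its libraries also served the genotype comparison, however, and a choice by decrease favours genes with high control and low mutant values. The calls and counts below, in controls and in mutants, are thus not independent of how the genes were picked. Among controls, 5 of the 10 genes were higher in c-Kit+ cells (7.08% of the 17350 genes tested were). Pde4c was higher in Thy1+ cells (20.7% of the genes tested were). Calls used the edgeR quasi-likelihood test with a false discovery rate (FDR) under 0.05 and a log2 fold change over 0.5. Kcnj15 also met these thresholds in Thy1+ cells, but its value is a description only, for the reasons given below. Gal3st1 was 3.05 times as high in c-Kit+ as in Thy1+ controls (log2 fold change of Thy1+ over c-Kit+ −1.58, SE 0.35, FDR = 0.00913), higher in 3 of 3 libraries than every Thy1+ control. Prss50 (−1.52, SE 0.42, FDR = 0.0221), Ly6k (−1.5, SE 0.36, FDR = 0.0134) and Tex101 (−1.16, SE 0.31, FDR = 0.0189) were likewise higher in each c-Kit+ control than in any Thy1+ control, as were 25.5% of all genes tested. Trim52 also passed (−0.91, SE 0.27, FDR = 0.0285), but its c-Kit+ control replicate 1, at 18.1 CPM, lay below Thy1+ control replicate 2, at 18.8 CPM. These 5 calls depend on the c-Kit+ controls: without c-Kit+ control replicate 2 only Gal3st1 passed, and without replicate 3 only 2 genes did.

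Kcnj15 and Pde4c showed the opposite pattern. Pde4c was 2.92 times as high in Thy1+ as in c-Kit+ controls (log2 fold change 1.58, SE 0.17, FDR = 1.97e-04). Kcnj15 was 9.07 times as high (3.19, SE 0.53), which is a description only, since it was picked on its decrease in Thy1+ cells and passed the filter on low counts through the Thy1+ controls. Both had 3 of 3 Thy1+ controls above every c-Kit+ control, as for 29.0% of all genes tested. Pkd2l1 (0.35, SE 0.19, FDR = 0.187), Syn2 (0.02, SE 0.13, FDR = 0.923) and Wdfy4 (0.35, SE 0.12, FDR = 0.0514) did not pass. Stromal, endothelial, macrophage and peritubular myoid markers were also higher in Thy1+ controls, at 627%, 398%, 399% and 596% of their summed c-Kit+ level. Leydig and mast cell markers were lower there, at 35.7% and 12.6%, and Sertoli and erythroid markers were at 110% and 90.1%. Germ cell markers were at 68.4%. By stage, undifferentiated spermatogonia markers were at 206%, differentiating ones at 62.8%, early meiotic prophase at 48.9% and late spermatocyte and spermatid markers at 79.1%. Scaled by the germ cell markers, which moved the median of all genes to 0.58, Pkd2l1 and Wdfy4 also passed as higher in Thy1+ cells. Trim52 no longer passed (−0.38, FDR = 0.262). The part of other cells in these differences was not tested.

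Among mutants 2 of the genes passed. Ly6k was higher in c-Kit+ cells (log2 fold change −1.21, SE 0.35, FDR = 0.0353; 5.03% of 17346 genes were higher there) and Pde4c higher in Thy1+ cells (1.03, SE 0.21, FDR = 0.00794; 15.3%). The call of Ly6k was lost without Thy1+ mutant replicate 3 (FDR = 0.0867), without any 1 of the c-Kit+ mutant replicates (FDR = 0.0582 to 0.118) and with germ cell marker scaling (FDR = 0.24). For Gal3st1 the value was −0.17 (SE 0.54, FDR = 0.829), with mutants of both populations between 0.186 and 0.710 CPM. Prss50 (−0.70, SE 0.23, FDR = 0.0541), Tex101 (−0.50, SE 0.17, FDR = 0.0591) and Trim52 (−0.49, SE 0.22, FDR = 0.122) were lower in every Thy1+ mutant than in any c-Kit+ mutant (21.7% of all genes tested were) without passing the threshold. Prss50 and Tex101 passed by the exact test (FDR = 0.0295 and 0.0171). Pkd2l1, Syn2 and Wdfy4 had values from −0.21 to 0.06 with FDR from 0.488 to 0.969, and Kcnj15 was too low to be tested. Since the difference between genotypes belongs to the contrast that chose the genes, whether the population contrast itself changed with genotype is not given as a test.

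**Figure D3:**
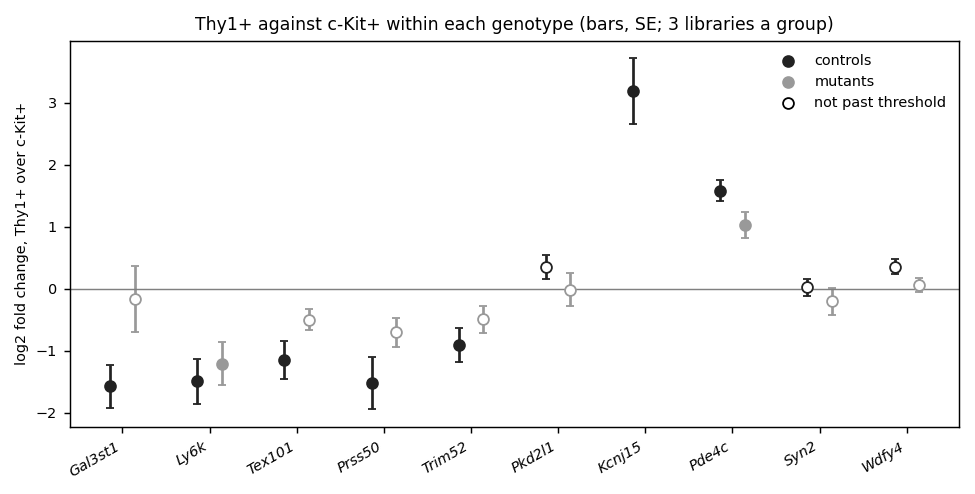
Log2 fold change of Thy1+ over c-Kit+ cells for each gene in controls (black) and mutants (grey), with SE from 3 libraries a group; filled points passed FDR under 0.05 and a change over 0.5. Gal3st1, Ly6k, Tex101, Prss50 and Trim52 lie below 0 in controls, Kcnj15 and Pde4c above. The Kcnj15 point is a description only.

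The genes also differed in how they varied among libraries. After removal of the group means from the log2 levels, the 12 deviations of Gal3st1, Ly6k, Tex101 and Prss50 were correlated pair by pair. Values ran from 0.573 (Gal3st1 and Tex101) to 0.882 (Prss50 and Tex101), while Trim52 correlated with these 4 genes at 0.315 to 0.808. Wdfy4 correlated with the same 5 genes at −0.711 to −0.478 and Pde4c at −0.711 to −0.104. These are descriptions over 12 libraries that share their depth and cell makeup. In Thy1+ control replicate 1, the library rich in Sertoli markers, Gal3st1, Ly6k, Tex101, Prss50 and Trim52 were each at their lowest control level of that population, and Wdfy4, Pde4c, Pkd2l1 and Kcnj15 at their highest. Leaving out both Thy1+ libraries of replicate 1, chosen after seeing the data, could not change the order of the groups. With TMM scaling, all Thy1+ mutants already lay below all Thy1+ controls for each of the 10 genes.

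Marker genes of several cell types moved with genotype beside these genes. In c-Kit+ cells 16 of 16 early meiotic prophase markers passed as lower in mutants, their summed level falling from 1963 to 3139 CPM in controls to 937 to 1031 CPM in mutants, or 38.4% of control. Single markers of that list kept between 7.78% (Meiob) and 62.6% (Syce2). Gal3st1, Ly6k and Prss50 kept less than any of the 16 markers, Trim52, Pkd2l1 and Tex101 kept less than their median of 37.9%, and the other 3 genes fitted kept more. Because the 10 genes were picked on their decrease, this placing is a description only. In Thy1+ cells the summed meiotic level was 53.5% of control (844 to 1565 CPM in controls, 515 to 887 CPM in mutants), with 0 of 16 markers passing, or 15 with the replicate number as a block, and the 10 undifferentiated spermatogonia markers were at 59.3% (716 to 1017 CPM against 467 to 602 CPM, 0 of 10 passing, 8 with the block). The 8 germ cell markers as a whole, led by Dazl, were at 82.2% in c-Kit+ (3089 to 3631 CPM against 2480 to 2914 CPM) and 81.3% in Thy1+ mutants, with 0 of 8 passing in either. Many somatic markers passed as higher in c-Kit+ mutants, where 14.8% of all genes tested did. These were 7 of 8 for Sertoli cells (161 to 419 CPM against 672 to 741 CPM), 6 of 6 for stroma and 4 of 4 for endothelium. They were 4 of 6 for Leydig cells, 3 of 4 for mast cells and 3 of 5 for peritubular myoid cells, where 2 of 5 had a log2 fold change below 0. For macrophages 0 of 4 passed, and 0 of 1 tested erythroid marker did. No marker of these lists was at 0 counts in a group. The Sertoli sum of Thy1+ cells was also higher in the mutant of each same-numbered pair (666 and 866, 145 and 303, 155 and 302 CPM), at 152% of control, with 0 of 8 passing, or 6 with the block.

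**Figure D4:**
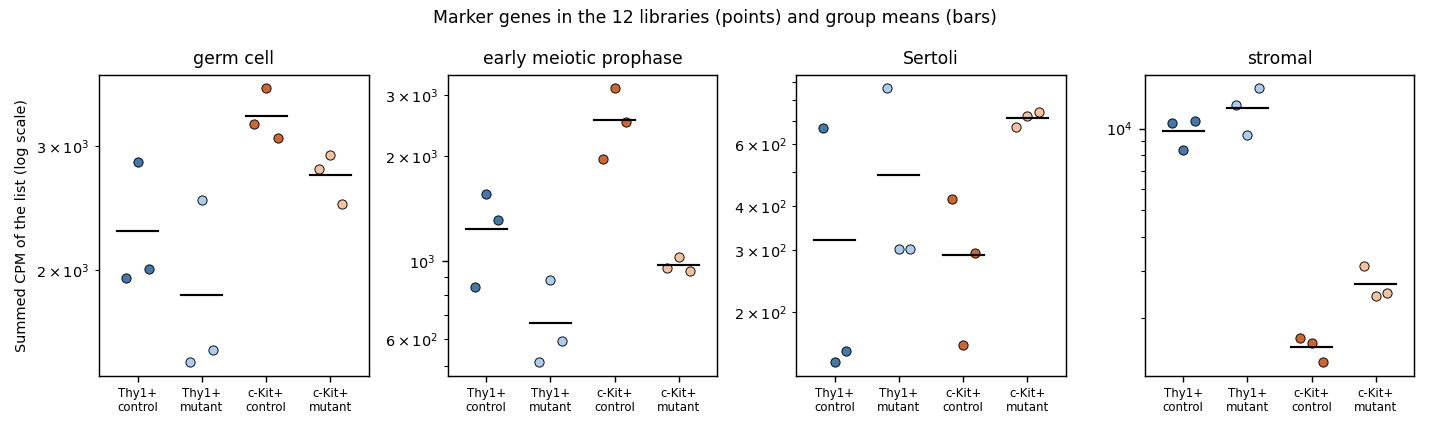
Summed CPM (log axes) of 8 germ cell, 16 early meiotic prophase, 8 Sertoli and 6 stromal markers in the 4 groups; points are libraries and bars means of 3. In c-Kit+ cells the meiotic sum lies at 937 to 1031 in mutants against 1963 to 3139 in controls, and the Sertoli sum at 672 to 741 against 161 to 419.

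Scaled to 1000 germ cell marker counts, Gal3st1 kept 3.94%, Prss50 5.53%, Ly6k 7.73%, Trim52 26.4%, Pkd2l1 29.1%, Tex101 31.6%, Syn2 48.1% and Wdfy4 79.0% of their c-Kit+ control level. In Thy1+ cells the scaled values were 12.7% for Gal3st1, 10.5% for Prss50, 10.1% for Ly6k, 11.4% for Kcnj15, 22.7% for Pkd2l1, 36.1% for Trim52, 42.2% for Syn2, 45.8% for Pde4c and 51.9% for Tex101. This scaling moved the median log2 fold change of all genes from 0.01 to 0.31 in c-Kit+ and from 0.02 to 0.34 in Thy1+ cells, so all values shifted upward, and the order Gal3st1, Prss50, Ly6k from the lowest stayed in c-Kit+ cells. How far a change in cell makeup contributes to the 10 decreases was not tested.

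Relatives of the 10 genes, from lists that leave out the genes themselves, were compared between genotypes. In c-Kit+ cells 25 of 175 tested family and pathway genes passed as lower in mutants (14.3%, against 7.41% of the 17134 genes tested) and 30 as higher (17.1%, against 14.8%), with a median log2 fold change of −0.04 against 0.01 over all genes. In Thy1+ cells 0 of 177 passed in either direction, as did 0.0% of all genes tested there (2151 of the 17416 had a p under 0.05 before adjustment). Blocking on replicate number, 17 passed as lower and 9 as higher in Thy1+ cells, where 4.92% and 3.2% of all genes did. The edgeR exact test gave 9 lower (1.57% of all genes) and DESeq2 11 lower. Scaled by the germ cell markers, the c-Kit+ counts became 11 lower and 47 higher.

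In the seminolipid pathway, 1 of 14 tested genes was lower and 2 were higher in c-Kit+ mutants. The 1 that fell was Ugt8a, the galactosyltransferase whose lipid product Gal3st1 sulfates, from 71.6 ± 24.2 CPM to 16.4 ± 1.30 CPM (SD, n = 3; log2 fold change −2.14, SE 0.22, FDR = 2.07e-04). In Thy1+ cells Ugt8a was at 13.7 to 41.6 CPM in controls and 7.97 to 12.8 CPM in mutants, and passed with the block (−1.47, FDR = 9.64e-06). Papss2, which makes the sulfate donor (0.91, FDR = 8.96e-04), and Arsa, the lysosomal sulfatase that removes the sulfate (0.81, FDR = 0.00554), rose in c-Kit+ mutants.

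In the Ly6/uPAR family, 3 of 18 tested genes fell and 4 rose in c-Kit+ mutants. Those that fell were Gml, from 3.75 ± 1.28 to 0.553 ± 0.081 CPM (log2 fold change −2.77, SE 0.32, FDR = 2.91e-04), its close copy Gml2, from 4.76 ± 0.25 to 0.780 ± 0.48 CPM (−2.60, SE 0.38, FDR = 7.13e-04), and Lypd4, a sperm surface protein (−2.07, SE 0.43, FDR = 0.00381). Cd59b, a GPI-anchored inhibitor of complement, had the largest rise, at a low level (0.195 to 0.838 CPM; 2.07, SE 0.53, FDR = 0.0116). Reads of Gml and Gml2 may not be divided with certainty, because the copies are alike.

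Among 8 tested testis serine proteases, 4 fell and 0 rose in c-Kit+ mutants, and the median log2 fold change was −1.12. Prss41 fell from 7.39 ± 1.59 to 0.570 ± 0.27 CPM (−3.69, SE 0.33, FDR = 1.54e-04), Prss38 from 2.47 to 0.862 CPM (−1.53, FDR = 0.00157), Tmprss12 from 0.913 to 0.320 CPM (−1.51, FDR = 0.0188) and Prss42 from 5.20 to 3.16 CPM (−0.73, FDR = 0.0119). The value of Tmprss12 rests on few reads. Its call was lost with all 12 libraries in one fit (FDR = 0.171) and without c-Kit+ control replicate 2 (−1.21, FDR = 0.101). It was also lost without c-Kit+ mutant replicate 1 (FDR = 0.0551) and without c-Kit+ mutant replicate 3 (FDR = 0.0733). Of 14 genes for sperm surface ADAM proteins and for GPI anchoring, on which Tex101 and Ly6k depend or act, 2 fell and 2 rose, each by less than 1 on the log2 scale. They were Gpaa1 (−0.67) and the chaperone Clgn (−0.56), which fell, and Adam1a (0.97) and Pgap2 (0.73), which rose.

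Relatives of the channel and signalling genes moved in both directions. Of 7 polycystin genes, 0 fell and Pkd2 rose (from 51.8 ± 7.92 to 107.9 ± 3.08 CPM; 1.04, SE 0.10, FDR = 1.77e-04). Of 20 phosphodiesterase genes, 4 fell and 3 rose, led by Pde1c (−1.23, FDR = 0.00791) and Pde1a (0.98, FDR = 7.33e-04). Of 11 inward rectifier genes, 3 fell, led by Kcnj10 (−1.28, FDR = 0.00571) and Kcnj11 (−0.87, FDR = 0.00641), and 2 rose, Kcnj3 (1.16, FDR = 0.0495) and Kcnj2 (0.82, FDR = 0.0402). The call of Kcnj3 was lost in 10 of 14 alternatives, among them DESeq2 (FDR = 0.0832) and the block (FDR = 0.0707), and that of Kcnj2 in 7 of 15, among them the block (FDR = 0.0520). Among 17 genes of synaptic vesicles, Unc13a (−1.29, FDR = 0.0013), Syn1 (−0.85, FDR = 0.0139) and Syngr1 (−0.70, FDR = 0.0131) fell and Cplx2 (1.16, FDR = 3.90e-04) rose. Syn1, the closest relative of Syn2, went from 4.22 ± 1.05 to 2.36 ± 0.195 CPM.

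Of 8 BEACH domain genes other than Wdfy4, Nbeal2 (78.3 ± 4.60 to 43.8 ± 4.01 CPM; −0.85, SE 0.09, FDR = 2.09e-04) and Lyst (178 ± 18.1 to 107.9 ± 5.82 CPM; −0.74, SE 0.08, FDR = 2.48e-04) fell and 0 rose. Both are changes of about the size seen for Wdfy4, and both passed with the block in Thy1+ cells (−0.76 and −0.69). In the TRIM family, 15 of 58 tested genes rose (25.9%, against 14.8% of all genes tested), 3 fell and the other 40 did not pass, with 25 of the 58 below 0 and a median of 0.11. In Thy1+ cells 0 of 58 passed and 33 were below 0, and with the block 4 passed as lower and 2 as higher. The largest rises were those of Trim12a (5.86 to 16.2 CPM; 1.46, FDR = 1.92e-04), Trim47 (1.35, FDR = 4.70e-04), Trim5 (1.34, FDR = 0.00806) and Trim14 (1.30, FDR = 3.95e-04). Somatic cell markers rose in the same libraries, and whether these TRIM genes come from other cells was not tested.

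**Figure D5:**
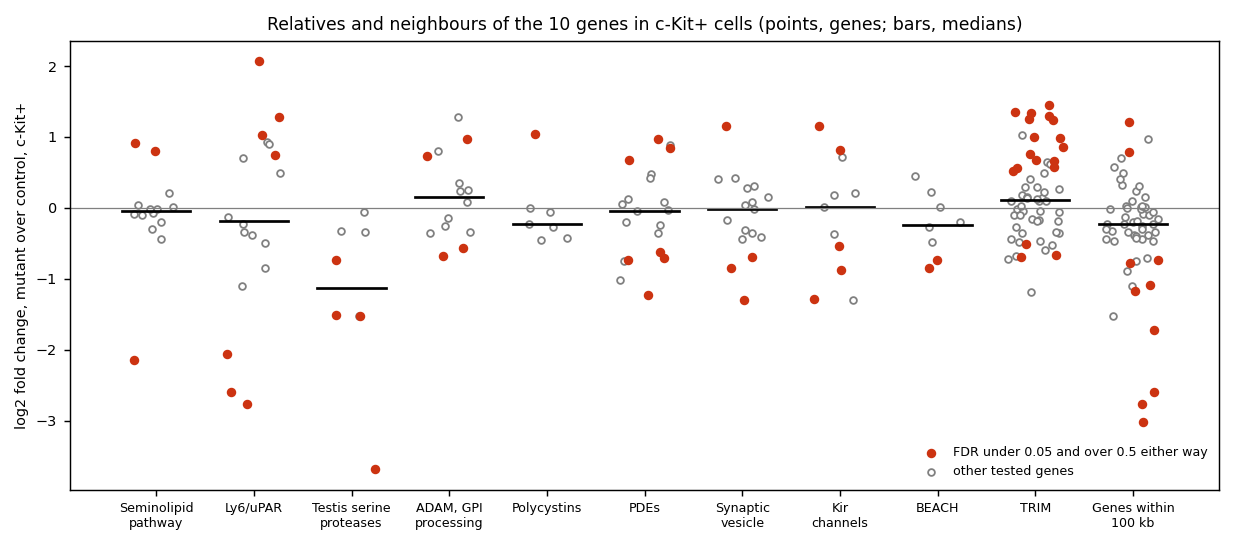
Log2 fold change of mutant over control c-Kit+ cells for each tested relative of the 10 genes by list, and for genes within 100 kb of them; red points passed FDR under 0.05 and a change over 0.5, and bars are medians. The testis serine proteases have the lowest median (−1.12) and 4 of 8 passed as lower.

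Genes next to the 10 were examined within 100 kb. In c-Kit+ cells 8 of 56 tested neighbours passed as lower in mutants (14.3%, against 7.41% of all genes) and 2 as higher (3.57%, against 14.8%). Their median log2 fold change was −0.23, against 0.01 over all genes. Gml, Gml2 and Prss42 among them are also counted with the relatives above. With germ cell marker scaling 4 passed as lower and 7 as higher. In Thy1+ cells 0 of 53 passed, or 3 as lower with the block. Around Syn2, 3 of 4 tested neighbours fell: the noncoding RNA Gm17733, whose annotated start lies 67 bases from that of Syn2 on the opposite strand (1.60 ± 0.72 to 0.198 ± 0.032 CPM; −3.02, SE 0.46, FDR = 8.33e-04), Pparg (10.2 ± 2.94 to 3.11 ± 0.53 CPM; −1.73, SE 0.24, FDR = 5.35e-04) and Timp4, which lies within an intron of Syn2 on the opposite strand and shares 0 exon bases with it. In Thy1+ cells Pparg was at 7.91 and 6.84 CPM, with overlapping groups. The library kit kept strand but the counting command named no strand option, so reads of unspliced Syn2 RNA over the exons of Timp4 would be counted for Timp4.

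Beside Ly6k, 2 of 8 tested neighbours fell, Gml, which lies 13486 bases away, and Gml2. Beside Prss50, Prss42 fell and 1 of the 8 rose, Tmie, which lies 1418 bases away (log2 fold change 0.79, FDR = 0.0291). Prss46, 1445 bases before Prss50, was at 0.214 CPM in c-Kit+ controls and at 0 counts in the 3 mutants, too low to be tested. Beside Pkd2l1 the kinase gene Chuk fell (209 to 124 CPM), and beside Tex101 Lypd10 did. Around Gal3st1 0 of 8 tested neighbours passed, and around Pde4c 0 of 15. The closest tested neighbour of Gal3st1, Pes1, was at 185 CPM in c-Kit+ controls and 170.9 CPM in mutants with overlapping groups. Around Wdfy4, 1 of 2 tested neighbours passed, Vstm4, which rose from 22.65 to 52.93 CPM (log2 fold change 1.21, FDR = 2.07e-04). Lrrc18, which lies inside Wdfy4 on the opposite strand, was at 0.18 to 0.37 CPM in every group mean and shares 0 exon bases with it.

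The mean standardized profile of the 10 genes over the 12 libraries is largely the difference between genotypes that chose them, so the ranking by likeness to it describes genes lower in mutants and supports nothing about the 10. The genes most like it were Cep350 (r = 0.978), Trap1a, Zfp42, Chd6, Pnma5, Sfmbt2, Magea8 and Mink1 (r = 0.969), out of 17992 compared. Zfp42 is the pluripotency-associated zinc finger gene Rex1, Sfmbt2 a polycomb group gene and Chd6 a remodeler of the same family as CHD8. Zfp42 was at 7.41 ± 0.46 CPM in Thy1+ controls and 2.45 ± 0.55 CPM in mutants, and at 7.16 ± 1.53 and 2.04 ± 0.35 CPM in c-Kit+ cells. Chd6 had nearly the same profile at a small amplitude (275 ± 12.5 to 226 ± 13.0 CPM in c-Kit+ cells), so likeness of pattern says nothing of the size of a decrease. The correlation of each of the 10 genes with that profile, of which it is itself a part, ran from 0.617 for Kcnj15 and 0.637 for Pde4c to 0.981 for Syn2, and 162 other genes were above 0.9. By rank correlation 0 of the same 8 genes were among the most alike.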

How the data were processed

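RNA from 12 libraries (3 each of Thy1+ and c-Kit+ cells, control and mutant) was made into poly(A) directional libraries. Per the labels and the study's methods, the authors trimmed reads with Trimmomatic 0.39, aligned them to mm10 with HISAT2 2.1.0 and counted them per gene with featureCounts (version 2.0.3 in the header of the table). The deposited values are raw read counts per Entrez gene, with exon coordinates, on 27179 genes, of which 25275 were matched to a symbol. The submitters' processing notes name edgeR 3.16. The counting command in the header names no strand option.

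Each comparison was fitted in edgeR 4.0.16 (R 4.3.3) on its own 6 libraries with TMM scaling, filterByExpr, the quasi-likelihood test and Benjamini-Hochberg adjustment over all genes tested. Calls needed FDR under 0.05 and a log2 fold change beyond 0.5 in either direction, and SE was the log2 fold change divided by the root of F. Levels are CPM after TMM over 12 libraries. The genotype difference of the 10 genes was not tested, since it chose them. The 10 genes, the lists of relatives and markers and the motifs were chosen with earlier results of these data known. Named relatives are up to 4 called genes of each list with the largest absolute log2 fold change in c-Kit+ cells. Some of the genes that overlap or adjoin one of the 10 were also named. Chuk, Lypd10, Tmie and Vstm4 were named after their values were seen. The 8 genes most alike were ranked by Pearson's r of log2(CPM + 0.5). Scripts were tested on simulated data. Library totals (32266861 to 45396233) leave counting error small above a few CPM and large for genes with few reads, such as Kcnj15 in c-Kit+ cells.

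Same-numbered libraries deviated together between genotypes (correlation of deviations from group means 0.101 to 0.125 in c-Kit+ and 0.266 to 0.490 in Thy1+). They also did between control populations (0.134 to 0.298). The fits reported did not use this pairing, and the blocked fit was run as an alternative. In Thy1+ cells the blocked fit called 856 genes lower and 558 higher in mutants, where the fit reported called 0 in either direction. Other alternatives were the exact test, DESeq2 1.42.0, other scalings and filters, all 12 libraries in one fit, and leaving out libraries. Promoters came from a RefSeq table for GRCm38.p6.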

Additional observations from a re-analysis of the deposited data

Results flagged for a closer look

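Trim14, a TRIM family gene, differed between the sorted populations in opposite directions in the 2 genotypes. Thy1+ controls were at 5.13, 3.90 and 3.99 CPM, above the c-Kit+ controls at 3.33, 3.11 and 2.88 CPM, whereas Thy1+ mutants were at 6.83, 5.39 and 4.50 CPM, below the c-Kit+ mutants at 8.85, 7.37 and 7.0 CPM. It was singled out because all libraries of each genotype followed this order. The difference between the 2 contrasts was 0.99 on the log2 scale and did not pass the edgeR quasi-likelihood test of the interaction (FDR = 0.386), for which 0 of 18002 genes passed and 1804 had an unadjusted p under 0.05.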

How the results depend on the processing

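Leaving out single libraries changed the number of the 10 genes higher in c-Kit+ than in Thy1+ controls from 5 to between 1 and 5 (1 without c-Kit+ control replicate 2, 2 without replicate 3). In mutants that number was 1 (Ly6k), and it was 3 by the exact test, 2 by DESeq2, 3 with library size scaling, 3 with the replicate block and 0 with germ cell marker scaling, and 0 to 4 when single libraries were left out. Same-numbered deviations of the mutant populations correlated at 0.0211 to 0.204. With germ cell marker scaling, added after seeing the data for these results, 4 genes instead of 2 were higher in Thy1+ controls. Both counts include Kcnj15, whose value is a description only. The c-Kit+ counts of relatives became 47 higher and 11 lower in place of 30 and 25, and those of neighbours 7 higher and 4 lower in place of 2 and 8. Neighbours called lower in c-Kit+ cells were 5 with all 12 libraries in one fit and 16 with no minimum on the fold change, and those called higher were 1 to 4 when single libraries were left out. In Thy1+ cells the relatives called lower, 0 in the fit reported, were 9 by the exact test, 11 by DESeq2, 9 with all 12 libraries in one fit and 17 with the replicate block (9 higher), and 0 to 1 when single libraries were left out (1 without Thy1+ control replicate 1). Thy1+ neighbours called lower were 1 by the exact test, 1 by DESeq2, 1 with all 12 libraries and 3 with the block. The causes of these changes were not tested. The replicate block changed no call of the 10 genes in the population contrast of controls. The decreases kept their direction in all settings run: the log2 fold change of Gal3st1 in c-Kit+ cells ran from −5.11 to −4.64 and that of Wdfy4 from −0.69 to −0.34. Of 36 relatives and neighbours named for their c-Kit+ calls, 23 kept the c-Kit+ call in all alternatives. The other 13 lost it in at least 1, with 0 reversed. Without both Thy1+ libraries of replicate 1, also added after seeing the data, the counts of the 10 genes in the population contrasts did not change. Their count lower in every Thy1+ mutant than in any Thy1+ control, 10 with TMM scaling, could not change by this, since no groups overlapped there. It was 9 with DESeq2 size factors and 9 with germ cell marker scaling. In c-Kit+ cells that count was 9 with TMM scaling, 8 with germ cell marker scaling and 10 without c-Kit+ mutant replicate 2. Depth limits Kcnj15 in c-Kit+ cells, with 0 to 15 reads a library.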
